A study of Mus musculus with 4 samples.

Results

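Shox2 and En1 are homeobox genes used here as markers of subcutaneous patterning, and the peaks of open chromatin around them were described in 4 ATAC-seq libraries of mouse adipose progenitors. Every peak was taken that overlapped chromosome 3 from 66650000 to 66900000 (the Shox2 window) or chromosome 1 from 122400000 to 122650000 (the En1 window) on mouse genome build mm9. The windows of 250 kb held 21 peaks, 10 at Shox2 and 11 at En1. Peaks of different libraries sharing 1 bp or more were joined into regions, which gave 4 regions at Shox2 and 7 at En1, or 11 of the 83319 merged regions of the series. The positions were set by gene and not by a measured value, but they were chosen with earlier results of these data known.

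The progenitors are the fat precursor cells that can form adipocytes. They came freshly isolated and untreated from C57BL/6 mice aged 16 weeks, from subcutaneous fat (SAT 1 and SAT 2) and from visceral fat (VAT 1 and VAT 2), with 2 libraries per depot. The labels give no genotype other than the strain and do not say how the cells were sorted, which fat pad was taken, or whether the pair of libraries from each depot stands for different mice. Any spread between libraries may therefore be technical. In ATAC-seq a transposase cuts accessible DNA, and a peak is a place where such cuts pile up.

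Homeobox genes encode transcription factors that lay down position in the embryo, and many stay active in the mesenchyme of the adult body region where they were first switched on. Shox2, short stature homeobox 2, acts in the proximal limb skeleton and in the pacemaker region of the heart. En1, engrailed 1, acts at the boundary of midbrain and hindbrain and in the ventral limb ectoderm, and marks a lineage of dermal fibroblasts in the back. Both have been reported among developmental genes with more mRNA in subcutaneous than in visceral mouse fat. In the RefSeq gene table of assembly GRCm38, Shox2 has the protein-coding neighbours Ptx3, a secreted pentraxin of innate immunity, and Rsrc1, a splicing protein whose entry overlaps that of Shox2. En1 lies between Marco, a macrophage scavenger receptor, and Insig2, which restrains sterol synthesis.

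The sequence at the start of each gene is given as the reference promoter, so that the letters behind the gene names can be seen, 250 bases before to 50 bases after the start, from RefSeq on GRCm38.p6. The Shox2 entry is chr3:66981722-66982021 on the minus strand and the En1 entry is chr1:120602237-120602536 on the plus strand. These positions are on another build than the peaks and were not converted, so no peak was placed on or off a promoter, exon or intron. Capitals mark matches on either strand to 3 motifs chosen after the sequences were read. The first is TATAAA, the letters of the TATA box. The second is CACGTG, the palindromic E-box bound by basic helix-loop-helix factors. The last is CCAAT, the box bound by nuclear factor Y.
Shox2 promoter: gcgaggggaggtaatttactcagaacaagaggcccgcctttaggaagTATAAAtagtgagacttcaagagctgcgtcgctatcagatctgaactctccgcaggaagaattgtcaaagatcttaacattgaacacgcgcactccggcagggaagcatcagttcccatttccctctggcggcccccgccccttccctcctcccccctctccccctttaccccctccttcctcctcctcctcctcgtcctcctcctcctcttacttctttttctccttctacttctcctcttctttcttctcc
En1 promoter: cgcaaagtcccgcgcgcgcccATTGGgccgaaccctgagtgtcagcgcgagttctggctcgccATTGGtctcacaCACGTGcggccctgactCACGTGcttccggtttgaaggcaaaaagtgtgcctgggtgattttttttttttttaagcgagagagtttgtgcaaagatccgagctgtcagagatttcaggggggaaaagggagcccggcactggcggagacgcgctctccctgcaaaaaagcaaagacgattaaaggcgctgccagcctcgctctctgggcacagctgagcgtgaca
The Shox2 entry holds 1 TATAAA match, starting at base 48, which is 203 bases before the gene's start and well upstream of where a TATA box usually lies, and no CACGTG or CCAAT. The En1 entry holds 2 CACGTG matches, starting at bases 76 and 93, and 2 CCAAT matches on the reverse strand, starting at bases 22 and 64, with no TATAAA. No motif match overlaps another. Among 32851 RefSeq promoter entries of the same length, 13.6% hold TATAAA, 7.15% hold CACGTG and 37.4% hold CCAAT. The palindromic homeodomain core TAATTA, held by 5.29% of entries, is in neither sequence. The En1 promoter has 23 CpG dinucleotides, more than 78.5% of entries, and the Shox2 promoter has 11, more than 58.6%, against a median of 7.

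The lists differed in length, which bears on every comparison of depots. SAT 1 held 56823 peaks, SAT 2 held 22845, VAT 1 held 56907 and VAT 2 held 62279. No read counts come with the lists, so the depth behind them cannot be stated, and where a peak is missing the chromatin need not be closed. Each peak carries a score from the authors' peak caller, given here as the percentile within its own list (the percentage of that list's peaks that scored lower, with ties counted at their middle). Percentiles in lists of unequal length are set side by side as descriptions only.

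Around Shox2, all 4 regions sat in a stretch of 11.3 kb, from 66778615 to 66789915, which is 4.52% of the window. Outside it, no library had a peak for 470 kb before and 359 kb after. The first of these gaps was longer than 99.2% and the second longer than 98.8% of the 83298 gaps between neighbouring regions of the genome, whose median was 9.32 kb. Stretches that cannot be mapped were not taken out of the gaps. Any 4 consecutive regions spanned a median of 41.4 kb across the genome, and 8.76% of such runs were shorter than the run at Shox2. The Shox2 peaks were thus close together in a long stretch without peaks. The nearest regions beyond the window were a VAT 1 peak at 66308765 to 66308912 and a SAT 1 peak at 67148621 to 67148733. They lay 341 kb and 249 kb outside the window edges.

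Around En1, the 7 regions spanned 18.8 kb, from 122483190 to 122501957, or 7.51% of the window. The gap before them was 280 kb and the gap after them 152 kb, longer than 98.4% and 96.6% of all gaps. A run of 7 consecutive regions spanned a median of 93.0 kb, and 1.75% of runs were shorter than the one at En1. When regions with gaps of up to 100 kb were chained, the genome fell into 4672 clusters, of which 29.8% were a single region and the median held 3. The members at each gene formed a cluster of their own, and 51.0% of clusters had fewer regions than that at Shox2 and 63.1% fewer than that at En1. Just outside the En1 window, 3.98 kb past its end, a region at 122653975 to 122654587 had a peak in all libraries, at percentiles of 87.2 in SAT 1, 54.3 in SAT 2, 93.4 in VAT 1 and 87.6 in VAT 2. It stood above every En1 member peak in those of the libraries that had one, and it was not counted as a member.

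**Figure D1:**
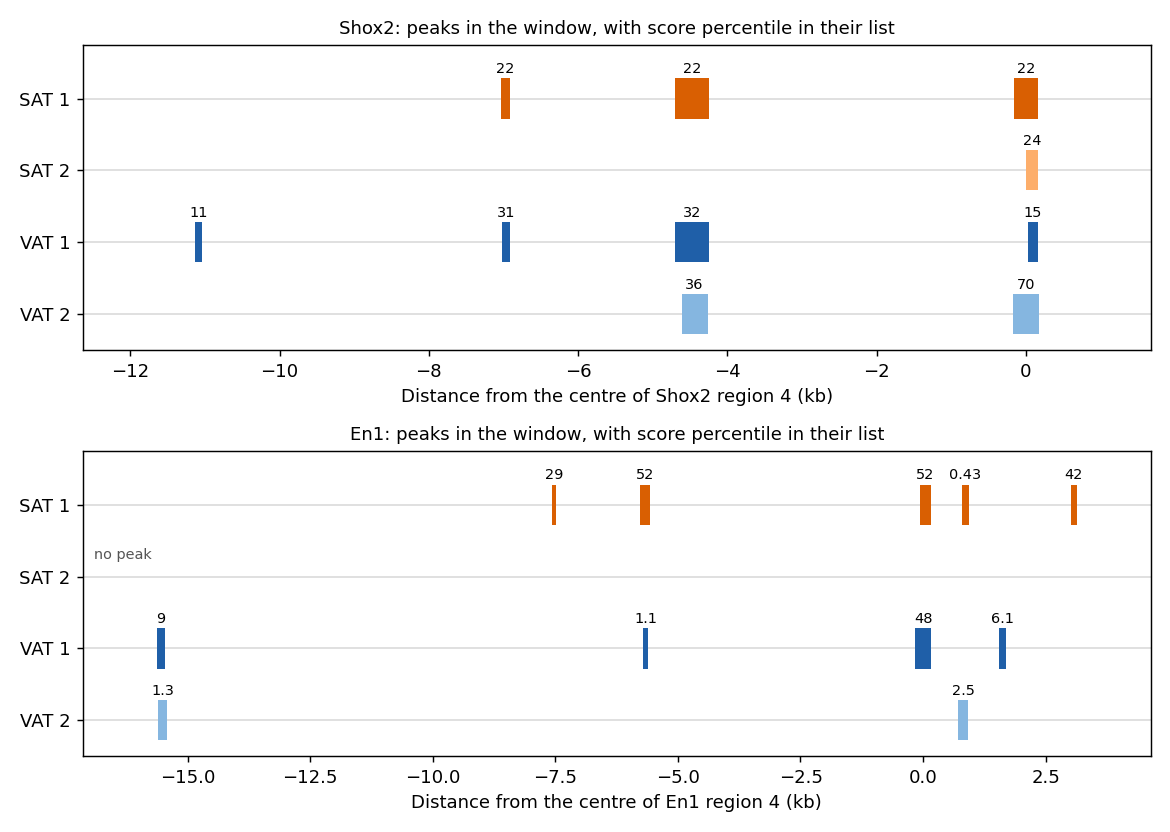
Peaks in the Shox2 window (top) and the En1 window (bottom), 1 row per library, drawn to scale against the distance in kb from the centre of region 4 of each gene. The number above each bar is the peak's score percentile in its own list; SAT 2 has 1 peak at Shox2 and none at En1.

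The peaks of subcutaneous and visceral progenitors were compared first by their number. At Shox2 there were 3 peaks in SAT 1 and 1 in SAT 2, against 4 in VAT 1 and 2 in VAT 2. The ranges overlapped, with 2 ± 1.41 peaks in SAT and 3 ± 1.41 in VAT (SD, n = 2 each), and the difference of -1 gave p = 0.667 in a two-sided exact permutation test over libraries. At En1 there were 5 peaks in SAT 1 and 0 in SAT 2, against 4 in VAT 1 and 2 in VAT 2. SAT 1 had the highest and SAT 2 the lowest number of the series, so the visceral libraries lay between the subcutaneous ones. The means were 2.5 ± 3.54 in SAT and 3 ± 1.41 in VAT (SD, n = 2 each; exact permutation p = 1 for the difference of -0.5). With 2 libraries against 2, the smallest p this test can give is 0.333. Without SAT 2 the difference at En1 was 2 peaks and that at Shox2 was 0; without VAT 1 they were 0.5 and 0, so the sign rests on single libraries.

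Covered length also overlapped between the depots. Shox2 peaks covered 913 bp in SAT 1 and 153 bp in SAT 2, against 788 bp in VAT 1 and 687 bp in VAT 2. Here the highest and the lowest value were both subcutaneous, whereas the highest number of Shox2 peaks was in VAT 1 (533 ± 537 bp in SAT and 738 ± 71.4 bp in VAT, SD, n = 2 each; exact permutation p = 1). En1 peaks covered 782 bp in SAT 1 and 0 bp in SAT 2, against 738 bp in VAT 1 and 384 bp in VAT 2. The depot means of 391 ± 553 bp in SAT and 561 ± 250 bp in VAT (SD, n = 2 each) differed by less than the spread within either depot pair at En1 (exact permutation p = 1). Without SAT 2 the difference was 176 bp at Shox2 and 221 bp at En1, with SAT above VAT.

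Apart from En1 in SAT 2, where there was no peak, both windows held numbers of peaks near the middle of the genome's range. The genome was divided into 10577 windows of 250 kb, up to the last peak of each chromosome. The median window held 3 peaks in SAT 1, 1 in SAT 2, 3 in VAT 1 and 3 in VAT 2. Windows with fewer peaks than Shox2 made up 45.9% in SAT 1, 43.7% in SAT 2, 52.3% in VAT 1 and 37.2% in VAT 2. For En1 the figure was 57.6% in SAT 1, 52.3% in VAT 1 and 37.2% in VAT 2. The absence of En1 peaks from SAT 2 was shared with 43.7% of all windows in that library. The stretch without SAT 2 peaks around En1 was 492 kb long.

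**Figure D2:**
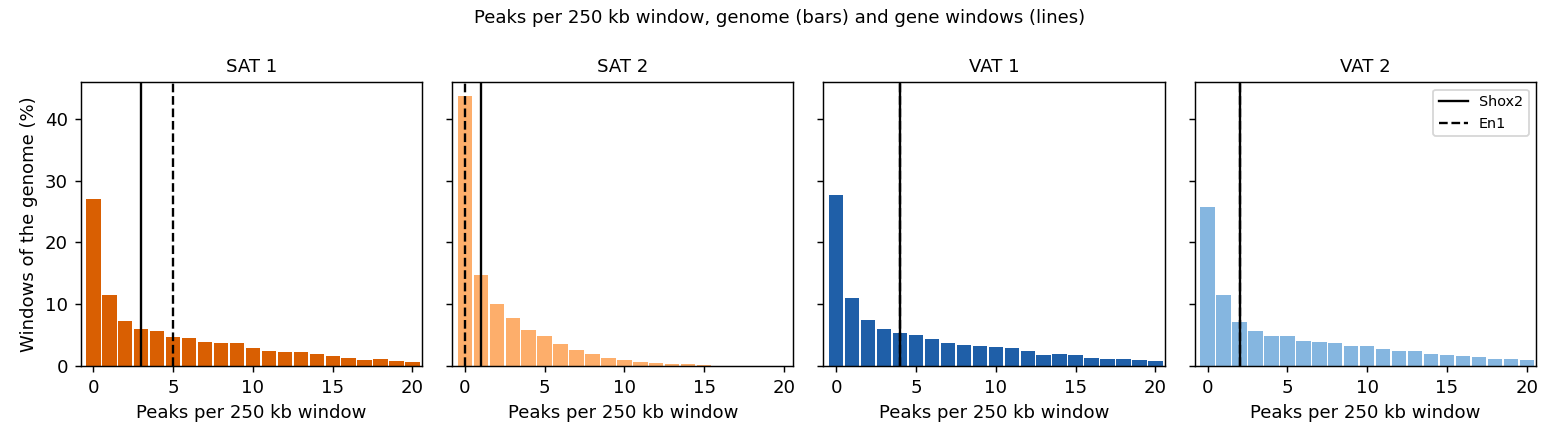
Percentage of 250 kb windows of the genome (y axis) by their number of peaks from 0 to 20 (x axis), 1 panel per library. Lines mark the Shox2 window (solid) and the En1 window (dashed), which coincide in VAT 1 at 4 peaks and in VAT 2 at 2 peaks; windows with more than 20 peaks are not drawn.

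No region in either window was restricted to subcutaneous progenitors, that is, had a peak in both SAT libraries and in neither VAT library. This count of 0 of 11 stands beside 0.110% of all merged regions. At Shox2 none of 4 regions was restricted to visceral progenitors, and at En1 1 of 7 was, against 4.60% of all merged regions. Regions with a peak in both replicate 1 libraries (SAT 1 and VAT 1) and in neither replicate 2 library numbered 1 at Shox2 and 2 at En1, against 9.37% of all regions, and 0 were found with the reverse pattern (0.652% of all regions). A peak in all 4 libraries was found in 1 Shox2 region and in 0 En1 regions, against 23.2% of all regions. SAT 2 had no peak at En1, so every count there that requires a SAT 2 peak could only be 0. At Shox2 its single peak allowed such a count to reach 1 at most. With so few regions, none of these counts was read as particular to the genes.

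The presence patterns differed between the genes in one respect. The Shox2 regions had peaks in 1, 2, 3 and 4 libraries, 1 region each. All 7 En1 regions had peaks in at most 2 libraries: 3 regions in 1 library and 4 in 2. SAT 2, with the shortest list, had no En1 peak, so an En1 region could reach 3 libraries at most. Across the genome 36.4% of regions had a peak in 1 library and 19.8% in 2. This difference between the genes was not tested, since regions of a window share their libraries.

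Shox2 region 4, at 66789578 to 66789915, was the only member region with a peak in every library. Its score was 60 in SAT 1 and 59 in SAT 2, against 54 in VAT 1 and 157 in VAT 2. The percentiles were 22.4 in SAT 1 and 23.6 in SAT 2, against 15.2 in VAT 1 and 69.7 in VAT 2. The VAT 2 peak was the highest percentile of all 21 member peaks, and the other visceral peak was the lowest of this region, so the visceral values enclosed the subcutaneous ones. To place the region on one scale, each library's scores were ranked among the same 19350 regions with a peak in all libraries. Region 4 then stood at percentiles of 2.65 in SAT 1 and 18.0 in SAT 2, against 1.59 in VAT 1 and 23.1 in VAT 2. Its SAT and VAT ranks overlapped. In 30.6% of common regions both SAT ranks lay on one side of both VAT ranks. Both replicate 2 libraries ranked it above both replicate 1 libraries, as they did 20.5% of common regions. Its weakest percentile, 15.2, was low for the pattern: 13.9% of regions with a peak in all 4 libraries were weaker, and their median was 52.7. En1 had no such region, so nothing could be ranked there.

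The extent of region 4 also differed between libraries. The peaks were 330 bp wide in SAT 1 and 153 bp in SAT 2, against 126 bp in VAT 1 and 338 bp in VAT 2. The wide peaks of SAT 1 and VAT 2 had starts 5 bp and ends 3 bp apart. The narrow peaks of SAT 2 and VAT 1 had starts 26 bp and ends 1 bp apart, at the end of the region with the higher coordinate. All 4 peaks ended within 12 bp of each other, whereas starts lay up to 200 bp apart. Under a rule of 50% reciprocal overlap the region therefore divided in pieces, 1 with SAT 1 and VAT 2 and 1 with SAT 2 and VAT 1, each crossing the depots.

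Shox2 region 3, at 66785039 to 66785500, was the widest member region, at 462 bp. It had a peak in every library but SAT 2, a pattern held by 19.5% of all regions. Scores were 60 in SAT 1, against 76 in VAT 1 and 73 in VAT 2, so its percentile was 22.4 for SAT 1, against 32.4 for VAT 1 and 35.6 for VAT 2. The peak was 462 bp wide in SAT 1, against 459 bp in VAT 1 and 349 bp in VAT 2. The SAT 1 and VAT 1 peaks shared their end and their starts lay 3 bp apart. Their summed offset of starts and ends was 3 bp. Of 40446 regions with a single SAT 1 and a single VAT 1 peak, 0.163% had a smaller summed offset, and the median was 77 bp. Such close edges were not shared by all members. For the same pair of libraries the figure was 5.06% in Shox2 region 2 and 91.6% in Shox2 region 4. It was 59.2% in En1 region 3 and 69.3% in En1 region 4. The SAT 1 and VAT 1 peaks of Shox2 region 3 were wide for their score, since 84.5% of SAT 1 peaks and 84.6% of VAT 1 peaks were narrower while most scored higher.

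Shox2 regions 1 and 2 were narrow. Region 2, at 66782716 to 66782836, had scores of 60 in SAT 1 and 72 in VAT 1 and no peak in the replicate 2 libraries, with edges 12 bp and 4 bp apart. Region 1, at 66778615 to 66778712, had a peak in VAT 1 only, with a score of 48 and a percentile of 11.0. All 3 Shox2 peaks of SAT 1 had the same score, 60, which 265 peaks of that list shared. Some other member scores were shared by more peaks, so their percentiles are the middle of a wide tie. In Shox2 region 4, 2065 VAT 1 peaks shared the score of 54 and 915 SAT 2 peaks that of 59. In En1 region 1, 1819 VAT 1 peaks shared the score of 46 and 846 VAT 2 peaks that of 28.

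The En1 peaks with the highest percentiles were in SAT 1. Region 3, at 122493053 to 122493243, had a score of 102 in SAT 1, against 30 in VAT 1, and no peak in SAT 2 or VAT 2. The percentiles were 52.1 in SAT 1 and 1.12 in VAT 1, so that this region lay near the middle of one list and at the bottom of the other. Region 4, at 122498654 to 122498984, had nearly equal scores of 101 in SAT 1 and 102 in VAT 1, at percentiles of 51.9 and 47.8, and likewise no peak in SAT 2 or VAT 2. Its weaker percentile was above that of 79.0% of the 7809 regions with peaks in SAT 1 and VAT 1 only, whereas for region 3 that figure was 1.37%.

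The other SAT 1 peaks at En1 were region 7, at 122501827 to 122501957 (score 85, percentile 42.2), and region 2, at 122491244 to 122491341 (score 66, percentile 28.8). Both were found in SAT 1 only, a pattern of 7.84% of all regions. Of the 6534 SAT 1 regions found in no other library, 88.4% were weaker than region 7 and 70.6% weaker than region 2. SAT 2 had neither of them, so they were not shared by the pair of subcutaneous libraries.

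En1 region 1, at 122483190 to 122483405, was the one member region restricted to visceral progenitors. Its scores were 46 in VAT 1 and 28 in VAT 2, at percentiles of 8.99 and 1.26, and both SAT libraries had no peak there. Only 3.70% of the 3835 visceral-restricted regions had a lower weakest percentile, and the median was 17.3. In lists limited to the top 50% of scores the region had no peak in any library. Region 5, at 122499536 to 122499748, joined SAT 1 (score 26) with VAT 2 (score 33), the crossed pattern of 4.93% of all regions, and region 6, at 122500373 to 122500504, had a VAT 1 peak only (score 42; 8.58% of all regions). All visceral peaks at En1 other than that of region 4 stood at or below a percentile of 8.99.

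Member peaks were weak overall. Of the 21 peaks, 18 stood below the percentile of 50 and 3 at or above it, and their median percentile was 22.4. Percentiles ran between 11.0 and 69.7 at Shox2 (median 23.0) and between 0.431 and 52.1 at En1 (median 8.99). By library, the En1 median was 42.2 in SAT 1 (5 peaks), against 7.55 in VAT 1 (4 peaks) and 1.89 in VAT 2 (2 peaks). At Shox2 the order was different, with 22.4 in SAT 1 (3 peaks) and 23.6 in SAT 2 (1 peak), against 23.1 in VAT 1 (4 peaks) and 52.7 in VAT 2 (2 peaks). Each median covers only the regions its own library had, and SAT 2 had no En1 peak. In shared En1 regions, SAT 1 was above VAT 1 in region 3 (52.1 against 1.12) and in region 4 (51.9 against 47.8). It was below VAT 2 in region 5 (0.431 against 2.53). In lists limited to the 22845 highest-scoring peaks, the length of the SAT 2 list, 2 of the 21 peaks remained, the SAT 2 and the VAT 2 peak of Shox2 region 4. The SAT 1 list then ended at a score of 120, the VAT 1 list at 134 and the VAT 2 list at 131, while the SAT 2 list kept every peak.

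**Figure D3:**
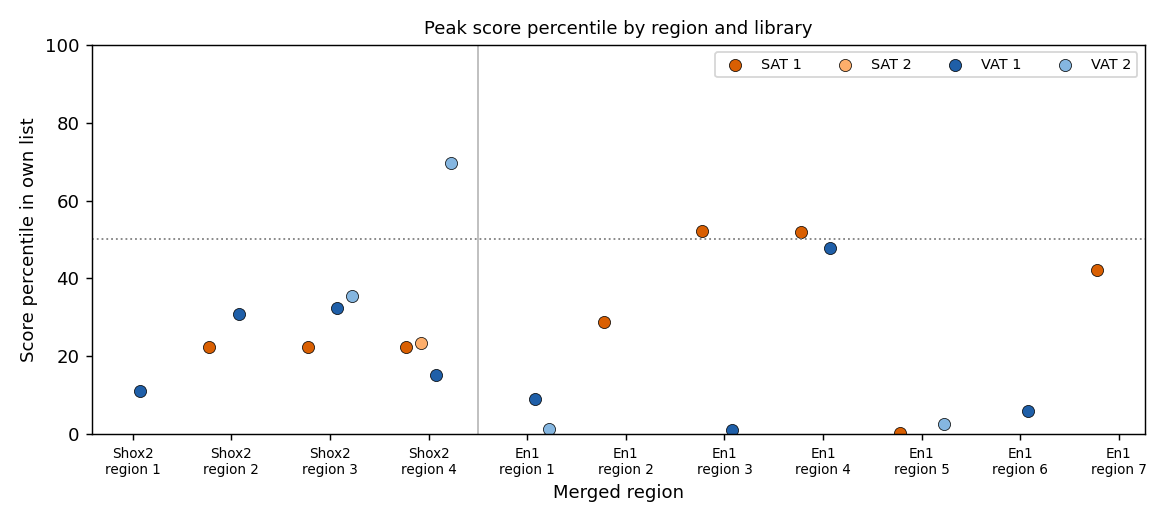
Score percentile of each peak in its own list (y axis, 0 to 100) by merged region (x axis), coloured by library; where a library has no point it had no peak in that region. The dotted line marks the percentile of 50, above which lie the VAT 2 peak of Shox2 region 4 and the SAT 1 peaks of En1 regions 3 and 4.

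How often a peak of a given score is shared by another library sets what a missing peak can say. Across the genome, sharing rose with score and was lower with the short SAT 2 list throughout. Among the 5226 regions whose SAT 1 peak stood between percentiles of 20 and 30, as in 3 Shox2 regions and in En1 region 2, 10.3% had a SAT 2 peak, against 62.4% with a VAT 1 and 55.9% with a VAT 2 peak. Of the 3 Shox2 regions in that band, 1 had a SAT 2, 3 a VAT 1 and 2 a VAT 2 peak, and En1 region 2 had none of them. Between percentiles of 50 and 60, as in En1 regions 3 and 4, 25.3% of 5869 regions had a SAT 2 peak, against 87.7% with a VAT 1 and 75.0% with a VAT 2 peak. Neither En1 region had a SAT 2 or a VAT 2 peak, and both had a VAT 1 peak. Between 40 and 50, as in En1 region 7, 81.8% of 4598 regions had a VAT 1 and 71.1% a VAT 2 peak, and region 7 had neither. A missing SAT 2 peak was thus the usual outcome at these scores. In these bands a missing visceral peak was the less frequent outcome. It was found in VAT 2 for Shox2 region 2 and En1 regions 2, 3, 4 and 7, and in VAT 1 for En1 regions 2 and 7. In the other direction, 5597 regions had a VAT 1 peak between percentiles of 0 and 10, as in En1 regions 1, 3 and 6. Of these, 40.8% had a SAT 1 peak and 5.23% a SAT 2 peak. En1 region 3 had a SAT 1 peak, and En1 regions 1 and 6 had neither. For VAT 1 peaks between 10 and 20, as in Shox2 regions 1 and 4, 51.9% of 4946 regions had a SAT 1 peak and 7.84% a SAT 2 peak. Shox2 region 4 had both and Shox2 region 1 had neither, so its missing SAT 1 peak was the less frequent outcome. On its VAT 1 score alone, missing SAT peaks were the more frequent outcome for the visceral-restricted En1 region 1. These shares take regions with or without a VAT 2 peak. The share among regions with low-scoring peaks in both visceral libraries, as in En1 region 1, was not computed.

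**Figure D4:**
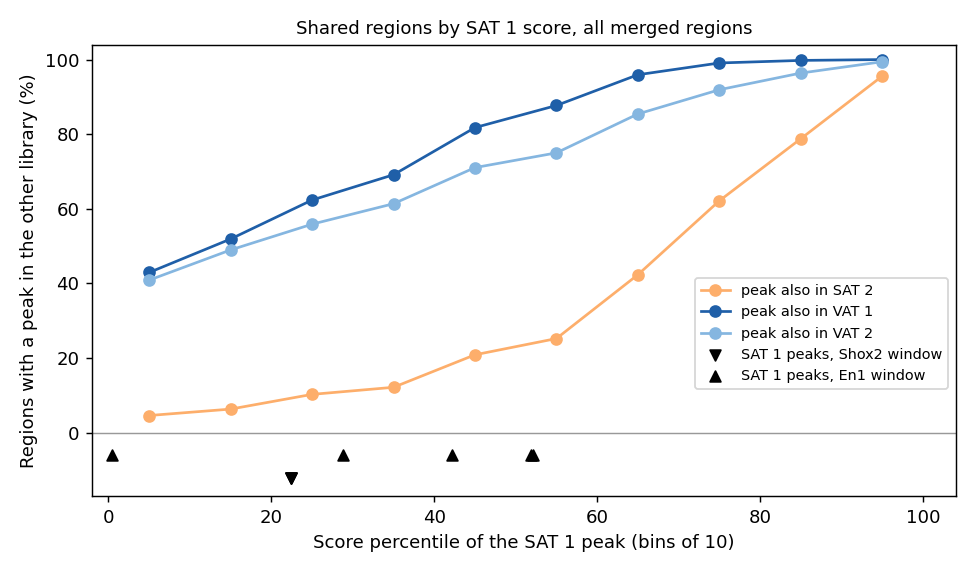
Percentage of all merged regions with a SAT 1 peak that also had a peak in SAT 2, VAT 1 or VAT 2 (y axis), by the score percentile of the SAT 1 peak in bins of 10 (x axis). Triangles below the zero line mark the SAT 1 percentiles of the Shox2 peaks (all 3 at 22.4) and of the 5 En1 peaks (0.431 to 52.1); SAT 2 lies below the visceral curves in every bin.

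Windows with the most similar mix of presence patterns were sought across the genome, by the sum of absolute differences in the shares of the 15 patterns. For Shox2 the closest of 5515 windows with at least 5 regions lay on chromosome 3 from 27000001 to 27250000 (sum 0.154), chromosome 19 from 23750001 to 24000000 (0.200) and chromosome 2 from 21750001 to 22000000 (0.214), against a median of 0.957. For En1 they lay on chromosome 4 from 54750001 to 55000000 (0.248), chromosome 6 from 123250001 to 123500000 (0.286) and chromosome 10 from 115000001 to 115250000 (0.413), against a median of 1.37 over 5513 windows. The Shox2 window itself held 4 regions, below the limit of 5, so it was compared only with windows of more regions. Those listed for it held 13, 15 and 7 regions. All the windows listed were chosen on these patterns, so their own counts of restricted regions are not a result. The genes in them were not looked up, since no mm9 annotation was used.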

How the data were processed

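The submitters' processing notes name Bowtie2, MACS2 and build mm9. Not given in the sources used here are versions, options, the handling of duplicates or repeats, and whether read ends were shifted. The authors deposited 1 peak list per library, with a score per peak of 20 or more whose scale no header states, so the score was used only to rank and filter within a list. Groups and replicate numbers came from the sample titles.

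Peaks overlapping by at least 1 bp were merged. The genome was tiled in windows of 250 kb from position 1. Merging gave the same regions as bedtools 2.31.1 and was tested on simulated data. Computations used Python 3.11.15 and numpy 2.4.6. Positions count from 1. Named regions were all members. The members, lists and tests were chosen with earlier results of these data known. Alternatives were equal-length lists, the top 50% by score, merging within 500 bp, 50% reciprocal overlap, 200 bp around each peak centre, the mean score of a region, each library left out, and a block for replicate number. Sequences came from RefSeq tables on GRCm38.p6. Peak sequences and gene annotation on mm9 were not used here.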

Additional observations from a re-analysis of the deposited data

How the results depend on the processing

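Of 106 recomputed values for 14 results, 81 kept their direction or stayed within 1.5 times of the count, 18 moved and 7 reversed. Part of the 81 could not have changed, so their share is not a measure of stability. En1 had no common region to rank in any setting. Pairing by replicate number cannot alter a mean difference when each pair holds 1 library per depot. The number of Shox2 regions with a peak in all 4 libraries (1) was 0 with equal-length lists, 0 in the top 50% and 0 with 50% reciprocal overlap, and lay between 1 and 2 when a library was left out. The En1 count restricted to VAT (1) was 0 with equal-length lists and 0 in the top 50%, and between 1 and 2 with a library left out. Leaving out a library gave 0 to 2 En1 regions restricted to SAT, 0 to 1 Shox2 regions restricted to VAT, and 0 to 1 common Shox2 regions ranked higher and 0 to 1 ranked lower in SAT. A single library then stands for a depot, which loosens the rule by construction. For SAT minus VAT, equal-length lists gave 0 peaks at Shox2, 0 peaks and 0 bp at En1. The top 50% gave 1 peak and 204 bp at En1, where SAT 1 alone holds peaks above the middle of its list. With a library left out, the differences ran from -2 to 0 peaks and from -584.5 to 175.5 bp at Shox2, and from -3 to 2 peaks and from -561 to 221 bp at En1. They were positive without SAT 2 (175.5 bp, 2 peaks and 221 bp) and, at En1, without VAT 1 (0.5 peaks and 7 bp). Pairing by replicate number, which the labels do not explain, left the replicate block differences at -1 peak (exact sign-flip p = 0.5) and -204.5 bp at Shox2 and at -0.5 peaks and -170 bp at En1 (p = 1 for these 3), where 2 pairs allow no p below 0.5. Depth is unknown, so no limit on missed peaks can be given.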
